A study of Mus musculus with 18 samples.

Results

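The interaction between a knockdown of Spi1 and the histone deacetylase inhibitor entinostat was measured in mouse erythroleukemic cells, as the part of the knockdown effect that differed between cells given entinostat and cells given its vehicle. It was taken from the 12 RNA-seq libraries of the crossed experiment, of 18 libraries in the series, and over all genes. The cells were bone marrow leukemic erythroid cells of TgSpi1 mice, which overproduce SPI1, kept in culture with EPO and named by 1 identifier in the design text, so 1 line carries every result. All groups carried the transgene and a doxycycline-inducible hairpin against Spi1. Dox_Entinostat cells had doxycycline for 48 h and 3 µM entinostat for 6 h, and NoDox_Entinostat cells had the same entinostat without doxycycline. Dox_DMSO cells had doxycycline for 48 h and the vehicle, and NoDox_DMSO cells had the vehicle alone. Each group had 3 libraries, called biological replicates in the labels. The promoter of the transgene is not given in the sources used here, and doxycycline in cells without the hairpin was not analysed here, so an effect of the hairpin and an effect of the drug cannot be told apart.

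SPI1, also called PU.1, is an ETS-family transcription factor that binds purine-rich DNA with a GGAA core. It drives myeloid and B-lymphoid genes and is normally turned down as red cells mature, and its overproduction holds erythroid precursors in a proliferating, immature state. Class I histone deacetylases remove acetyl groups from histones, often within corepressor complexes, and polycomb repressive complex 2 (PRC2) methylates histone H3 at repressed genes. The series asked how HDAC1 and PRC2 contribute to repression that depends on SPI1.

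The interaction is a difference between 2 log2 fold changes, namely that of doxycycline in entinostat (Dox_Entinostat over NoDox_Entinostat) minus that of doxycycline in DMSO (Dox_DMSO over NoDox_DMSO). It equals the entinostat effect with doxycycline minus the entinostat effect without it. A value of 0 means that the 2 treatments multiplied, so that the level in Dox_Entinostat cells was the product of the 2 separate fold changes. A positive value means a Dox_Entinostat level above that product, and a negative value a level below it. Levels are given in CPM (a gene's counts scaled to a fixed library total after TMM factors), which compare libraries for 1 gene and not genes of different length. Tests were edgeR's quasi-likelihood tests, two-sided, with Benjamini-Hochberg adjustment over all genes tested, and a gene was called at an adjusted p under 0.05. The p-values measure the spread between these libraries.

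The library totals lay between 43.1 and 48.9 M counts, and the third Dox_DMSO and the second Dox_Entinostat library marked the ends. The first Dox_DMSO and the first NoDox_Entinostat library stood apart from the other members of their groups, most clearly in the balance of short and long transcripts. The median log2 CPM of the 20% of genes with the shortest transcripts, minus that of the 20% with the longest, was 0.29, −0.01 and 0.23 in Dox_Entinostat and 0.30, −0.79 and −0.73 in NoDox_Entinostat. In DMSO it was 0.24, −0.78 and −0.82 in Dox_DMSO and −0.13, −0.49 and −0.32 in NoDox_DMSO. The second and the third libraries of Dox_DMSO and of NoDox_Entinostat thus shared low values, and the interaction subtracts both of these groups. Erythroid markers added up to 5883 to 7866 CPM in Dox_Entinostat and 3662 to 4125 CPM in NoDox_Entinostat, and to 4671 to 5586 CPM in Dox_DMSO and 3479 to 3633 CPM in NoDox_DMSO. The 6 macrophage markers reached 12.9 CPM in sum at most, with 4 of 6 under 1 CPM in every library, and the markers of neutrophils, of B cells, of T or NK cells and of stroma or endothelium reached 0.352, 1.21, 0.399 and 3.75 CPM. Mast cell markers added up to between 107 and 279 CPM and megakaryocyte markers to between 34.5 and 132 CPM. Among the mast cell markers Gata2, which is not confined to mast cells, reached 270 CPM and Fcer1a 94.7 CPM. Ms4a2, Kit, Cpa3 and Mcpt8 reached 30.7, 11.2, 4.58 and 0.0218 CPM. Gata2 was lower and Fcer1a higher in every entinostat library than in every DMSO library, so this sum does not measure mast cell content. In bulk RNA, fewer cells of a type and less RNA per cell cannot be told apart.

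**Figure D1:**
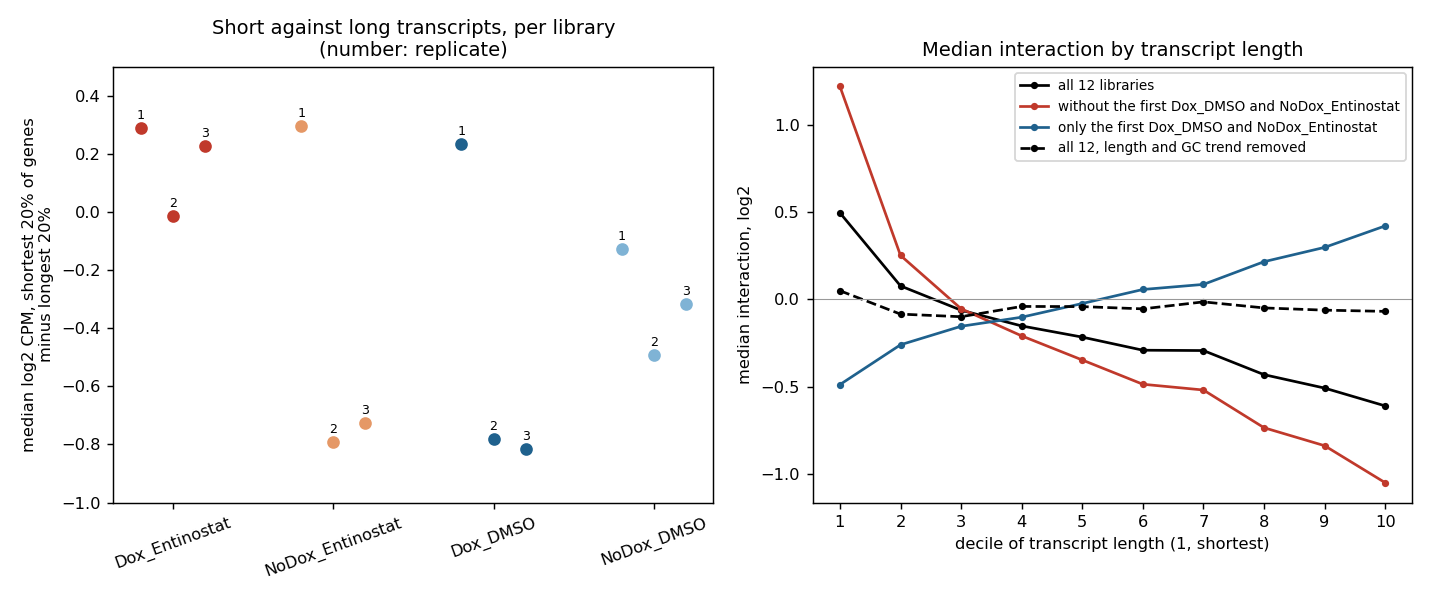
Left, the median log2 CPM of the 20% of genes with the shortest transcripts minus that of the 20% with the longest, 1 point per library, by group. Right, the median interaction (log2) in each decile of transcript length for 4 fits: it fell over the deciles with all 12 libraries (0.50 in the shortest, −0.61 in the longest), fell more steeply without the first Dox_DMSO and NoDox_Entinostat libraries (1.22 and −1.05), ran the other way with only those first libraries (−0.49 and 0.42) and was nearly flat once the trend was removed.

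Spi1 itself, the target of the hairpin, fell with doxycycline in both settings. It stood at 98.5, 162 and 132 CPM in Dox_Entinostat and 221, 480 and 482 CPM in NoDox_Entinostat, and at 59.5, 126 and 105 CPM in Dox_DMSO and 200, 259 and 252 CPM in NoDox_DMSO. The Dox and NoDox libraries did not overlap in either setting, and in each of the 4 groups the first library was the lowest. The doxycycline effect was −1.59 ± 0.33 on the log2 scale in entinostat (± SE here and below, 3 libraries a group, adjusted p = 0.00722) and −1.29 ± 0.33 in DMSO. The interaction for Spi1 was −0.30 ± 0.46 (adjusted p = 0.708), and it was −0.85 without the 2 libraries that stood apart (adjusted p = 0.011) and 1.18 with only those 2 in their groups. So the depth of the knockdown could not be shown to differ between the settings, and its estimate depended on which libraries entered. Transcripts of the transgene and of the gene itself were counted together where they share sequence.

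Of 15051 genes tested, 41 (0.272%) had an interaction past the threshold, 25 of them positive (0.166%) and 16 negative (0.106%). The 16 negative genes rose with doxycycline in DMSO and the 25 positive genes fell there, and in 41 of 41 the doxycycline effect lay nearer 0 in entinostat than in DMSO. That last count describes genes picked by this contrast and is no separate test. At an unadjusted p under 0.05 there were 2383 genes, and the median interaction over all genes tested was −0.09. The common coefficient of variation between libraries of a group was 0.242, to which the 2 libraries that stood apart contributed: without them it was 0.129.

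**Figure D2:**
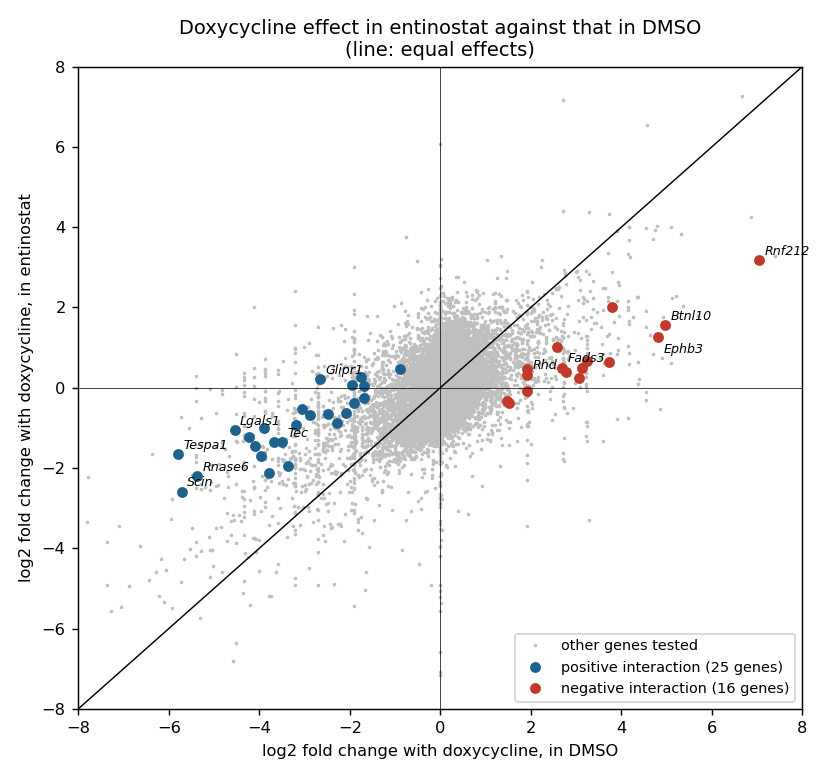
Each point is a gene tested, with the log2 fold change with doxycycline in DMSO on the x axis and in entinostat on the y axis; 1 gene beyond 8 log2 units is not drawn. The 25 genes with a positive interaction lie at the left, above the line of equal effects and the 16 with a negative interaction lie at the right, below it.

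The 16 negative genes rose less with doxycycline in entinostat than in DMSO, or did not pass the test in entinostat. Rnf212, a RING-domain protein known from meiotic recombination (ENSMUSG00000055385, mm10 chromosome 5, 108729290 to 108774982), had the most negative value. It had 12.2, 15.4 and 17.8 CPM in Dox_Entinostat and 1.62, 1.74 and 1.63 CPM in NoDox_Entinostat, against 2.58, 3.11 and 4.09 CPM in Dox_DMSO and 0, 0.0217 and 0.0436 CPM in NoDox_DMSO. All 3 Dox_Entinostat libraries were above all others, so that this gene was highest with both treatments, yet below the product of the separate effects. The NoDox_DMSO level rests on 3 reads in all, so the fold with doxycycline in DMSO is loose: 439 reads in Dox_DMSO against 3 in NoDox_DMSO gave a ratio of 149.5, with an exact 95% interval of 50.8 to 728 for counting error only. The interaction was −3.87 ± 0.58 (adjusted p = 0.0135), a fitted value that depends on the small number added to counts.

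The promoters of 26 of the 41 genes were found in RefSeq's table (GRCm38.p6), and the 250 bases before the start were searched on both strands for GAGGAA, a core of the sites that PU.1 binds. It lay in 3 of 12 promoters of negative genes (25.0%) and 2 of 14 of positive genes (14.3%), against 22.1% of the 10200 promoters of genes tested that were matched. The longer GAGGAAGT, which contains it, lay in 0 of 12 and 1 of 14, against 2.59% of all. These shares describe letters and not bound sites. The 5 windows with a match are shown because they are the only ones of called genes in which the core was found, and capitals mark GAGGAA or, on the other strand, TTCCTC. They lie at chr5:108775028-108775277 (minus strand, Rnf212), chr13:75943825-75944074 (minus strand, Rhobtb3), chr4:134864286-134864535 (plus strand, Rhd), chr11:46454681-46454930 (plus strand, Havcr2) and chr17:35202008-35202257 (minus strand, Tnf). The first 3 belong to negative genes and the last 2 to positive ones.
Rnf212: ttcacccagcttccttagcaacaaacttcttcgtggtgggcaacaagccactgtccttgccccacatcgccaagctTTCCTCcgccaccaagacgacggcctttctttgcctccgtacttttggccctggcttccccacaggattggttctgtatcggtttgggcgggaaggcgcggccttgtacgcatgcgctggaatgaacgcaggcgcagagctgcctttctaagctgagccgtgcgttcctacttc
Rhobtb3: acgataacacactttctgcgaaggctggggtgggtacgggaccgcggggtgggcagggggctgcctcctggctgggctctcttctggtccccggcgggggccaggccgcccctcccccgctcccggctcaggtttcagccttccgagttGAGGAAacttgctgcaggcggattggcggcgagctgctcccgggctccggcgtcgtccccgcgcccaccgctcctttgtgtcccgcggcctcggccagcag
Rhd: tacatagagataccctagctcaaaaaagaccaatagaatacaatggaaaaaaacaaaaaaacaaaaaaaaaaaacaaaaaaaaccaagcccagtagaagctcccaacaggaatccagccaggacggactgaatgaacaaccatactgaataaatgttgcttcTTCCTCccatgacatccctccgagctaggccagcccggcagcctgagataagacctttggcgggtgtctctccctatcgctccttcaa
Havcr2: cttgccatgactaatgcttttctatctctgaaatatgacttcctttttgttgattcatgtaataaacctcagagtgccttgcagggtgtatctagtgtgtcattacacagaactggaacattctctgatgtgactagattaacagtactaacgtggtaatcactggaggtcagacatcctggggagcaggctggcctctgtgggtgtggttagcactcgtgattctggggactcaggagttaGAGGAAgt
Tnf: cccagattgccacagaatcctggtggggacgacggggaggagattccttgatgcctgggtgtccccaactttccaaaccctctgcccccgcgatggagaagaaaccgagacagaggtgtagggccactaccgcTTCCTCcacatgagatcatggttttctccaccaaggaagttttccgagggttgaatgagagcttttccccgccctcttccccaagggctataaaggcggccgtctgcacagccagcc
In Havcr2 the match begins 8 bases before the start and is followed by GT, which makes the longer motif. For 21 of the 26 called genes, the RefSeq sequence and the opening of the longest annotated transcript shared a run of 12 bases. That run could lie away from the RefSeq start, so the 2 starts may differ in these 21 as well as in the other 5.

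Ephb3, a receptor tyrosine kinase for ephrin-B ligands (ENSMUSG00000005958, chromosome 16, 21204755 to 21223305), had 20.1, 37.5 and 35.3 CPM in Dox_Entinostat and 7.77, 14.7 and 16.0 CPM in NoDox_Entinostat. In DMSO it had 10.2, 29.8 and 36.1 CPM with doxycycline and 0.966, 1.06 and 0.676 CPM without. Either treatment alone lifted it well over the NoDox_DMSO range, and the Dox_Entinostat and Dox_DMSO ranges overlapped. The doxycycline effect was 1.27 ± 0.41 in entinostat and 4.81 ± 0.49 in DMSO, with an interaction of −3.54 ± 0.61 (adjusted p = 0.035). A product of the separate effects would have been 361 CPM, where the Dox_Entinostat mean was 31.0 CPM.

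Btnl10, a butyrophilin-like surface protein gene (ENSMUSG00000020490, chromosome 11, 58917908 to 58927158), was lower in Dox_Entinostat than in Dox_DMSO. It had 14.6, 17.2 and 16.7 CPM in Dox_Entinostat and 4.26, 6.34 and 5.80 CPM in NoDox_Entinostat, against 22.0, 61.9 and 57.3 CPM in Dox_DMSO and 1.24, 1.91 and 1.35 CPM in NoDox_DMSO. No pair of groups overlapped. Entinostat went with a higher level without doxycycline (1.86 on the log2 scale) and with a lower one with it (−1.54), and the interaction was −3.40 ± 0.47 (adjusted p = 0.00953).

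Plpp1, a phosphatase of lipid phosphates at the cell surface (ENSMUSG00000021759, chromosome 13, 112800792 to 112867894), had 50.5, 35.0 and 39.1 CPM in Dox_Entinostat and 31.1, 24.3 and 23.04 CPM in NoDox_Entinostat. In DMSO the levels were 19.7, 19.8 and 17.1 CPM with doxycycline and 2.16, 2.48 and 1.35 CPM without. The 4 groups did not overlap, and the step with doxycycline was small in entinostat and large in DMSO. The interaction was −2.57 ± 0.32 (adjusted p = 0.00493), and a product of the effects would have been 247 CPM.

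Osr2, a zinc finger transcription factor of limb and palate development, was low throughout. It had 5.24, 5.43 and 4.95 CPM in Dox_Entinostat and 3.36, 4.35 and 3.41 CPM in NoDox_Entinostat, against 3.49, 5.21 and 4.72 CPM in Dox_DMSO and 0.405, 0.608 and 0.502 CPM in NoDox_DMSO. The 3 groups with at least 1 treatment lay close together and far over the untreated one. The interaction was −2.65 ± 0.33 (adjusted p = 0.00493). Fads3, of the fatty acid desaturase family (ENSMUSG00000024664, chromosome 19, 10041569 to 10060110), had 47.3, 49.3 and 50.3 CPM in Dox_Entinostat and 28.9, 38.5 and 36.4 CPM in NoDox_Entinostat, against 46.6, 72.2 and 73.9 CPM in Dox_DMSO and 10.9, 10.4 and 8.47 CPM in NoDox_DMSO. Its Dox_Entinostat libraries fell within the Dox_DMSO range, and the interaction was −2.20 ± 0.27 (adjusted p = 0.00493).

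Rhd, the gene of the RhD blood group protein of the red cell membrane (ENSMUSG00000028825, chromosome 4, 134864536 to 134896172), had 75.9, 49.0 and 67.6 CPM in Dox_Entinostat and 46.5, 55.4 and 51.6 CPM in NoDox_Entinostat. In DMSO it had 131, 204 and 179 CPM with doxycycline and 43.0, 50.1 and 43.9 CPM without. Only the Dox_DMSO libraries stood over the rest, and the groups with and without doxycycline overlapped in entinostat. The doxycycline effect was 0.33 ± 0.20 in entinostat (adjusted p = 0.221) and 1.91 ± 0.20 in DMSO, with an interaction of −1.58 ± 0.28 (adjusted p = 0.039). Cited4, which binds the acetyltransferases CBP and p300, likewise had no called doxycycline effect in entinostat (−0.07 ± 0.24, adjusted p = 0.84). In DMSO that effect was 1.92 ± 0.25, and the interaction was −1.99 ± 0.35. Unlike Rhd, Cited4 rose with entinostat alone (1.57 on the log2 scale, adjusted p = 0.000261), and its Dox_DMSO libraries overlapped both entinostat groups. Dmwd, a WD-repeat protein gene beside the myotonic dystrophy kinase gene, had 9.51, 9.05 and 9.18 CPM in Dox_Entinostat and 9.96, 12.8 and 13.7 CPM in NoDox_Entinostat, against 17.9, 22.8 and 21.8 CPM in Dox_DMSO and 8, 8.15 and 5.65 CPM in NoDox_DMSO. It was lowest with both treatments among the 3 treated groups, and its interaction was −1.91 ± 0.27 (adjusted p = 0.00953).

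The other negative genes ranged from −3.08 to −1.45. Fhdc1, a formin, stood at −3.08, Abcg4, a sterol transporter, at −2.39, Rhobtb3 at −1.79 and Pkhd1l1, a large fibrocystin-like membrane protein, at −1.76. Pkhd1l1 was highest with both treatments, at 46.0, 77.6 and 63.6 CPM in Dox_Entinostat and 17.6, 14.0 and 14.5 CPM in NoDox_Entinostat, against 22.7, 28.0 and 29.0 CPM in Dox_DMSO and 2.47, 1.499 and 1.81 CPM in NoDox_DMSO. Its groups did not overlap, and its annotated transcript is 12949 bases long. The interaction was −1.36 and no longer called with the length and GC trend removed (adjusted p = 0.206), and −0.88 where the 2 libraries that stood apart were also left out. Doxycycline raised it in both settings, by 2.02 ± 0.23 in entinostat and 3.79 ± 0.25 in DMSO. Fgf2, a fibroblast growth factor, at −2.81, Yes1, a Src-family kinase, at −1.56 and Fam169a at −1.45 complete the 16 and were named after their values were seen. The entinostat effect without doxycycline lay between 0.74 (Dmwd) and 6.08 (Rnf212) log2 units in the 15 genes other than Rhd, where it was 0.16 and did not pass the test (adjusted p = 0.535). With doxycycline it lay between −1.54 (Btnl10) and 2.21 (Rnf212) in the 16.

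The 25 positive genes fell with doxycycline in DMSO, and in entinostat they fell less or did not pass the test. Tespa1, which takes part in T cell receptor signalling (ENSMUSG00000034833, chromosome 10, 130322870 to 130364111), had the most positive value. It had 11.9, 16.4 and 12.2 CPM in Dox_Entinostat and 53.8, 37.7 and 36.0 CPM in NoDox_Entinostat, against 0.246, 0.0432 and 0.108 CPM in Dox_DMSO and 6.38, 7.91 and 7.53 CPM in NoDox_DMSO. Each group stood clear of the others, and even with doxycycline the entinostat libraries exceeded those of untreated cells. The doxycycline effect was −1.66 ± 0.26 in entinostat and −5.79 ± 0.38 in DMSO, with an interaction of 4.14 ± 0.47 (adjusted p = 0.00493). The product of the separate effects would have been 0.773 CPM, where the Dox_Entinostat mean was 13.5 CPM.

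Lgals1, the gene of galectin-1 (ENSMUSG00000068220, chromosome 15, 78926725 to 78930465), had 91.4, 173 and 118 CPM in Dox_Entinostat and 318, 245 and 233 CPM in NoDox_Entinostat. In DMSO it had 5.16, 2.16 and 2.58 CPM with doxycycline and 75.7, 77.9 and 77.4 CPM without. The groups did not overlap, and the Dox_DMSO libraries were far below the rest. The interaction was 3.49 ± 0.43 (adjusted p = 0.00493), against a product level of 11.4 CPM. Rnase6, a secreted ribonuclease of myeloid cells, had 5.01, 7.34 and 8.30 CPM in Dox_Entinostat and 30.6, 31.7 and 33.4 CPM in NoDox_Entinostat, against 0.442, 0.151 and 0.237 CPM in Dox_DMSO and 7.37, 11.99 and 14.8 CPM in NoDox_DMSO. Here Dox_Entinostat and NoDox_DMSO overlapped, and the interaction was 3.16 ± 0.47 (adjusted p = 0.0123).

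Scin, the actin-severing protein adseverin, had 2.57, 2.91 and 2.62 CPM in Dox_Entinostat and 12.7, 16.8 and 19.4 CPM in NoDox_Entinostat, against 0.270, 0.0648 and 0.172 CPM in Dox_DMSO and 7.96, 7.95 and 10.8 CPM in NoDox_DMSO. It fell with doxycycline in both settings without overlap, with log2 changes of −2.59 ± 0.28 in entinostat and −5.72 ± 0.36 in DMSO, and the interaction was 3.13 ± 0.44 (adjusted p = 0.00953). Cd200r1, an inhibitory receptor of myeloid cells, had 18.3, 20.3 and 20.3 CPM in Dox_Entinostat and 55.2, 39.7 and 42.2 CPM in NoDox_Entinostat, against 0.417, 0.259 and 0.474 CPM in Dox_DMSO and 4.92, 5.89 and 11 CPM in NoDox_DMSO. The Dox_Entinostat libraries thus lay above those of NoDox_DMSO, as in Tespa1, and the interaction was 3.02 ± 0.43 (adjusted p = 0.00953). Tnf, the gene of tumor necrosis factor, was low, at 1.79, 1.52 and 1.65 CPM in Dox_Entinostat and 3.85, 3.12 and 2.98 CPM in NoDox_Entinostat, against 0.0982, 0.0864 and 0.0431 CPM in Dox_DMSO and 0.742, 1.32 and 1.40 CPM in NoDox_DMSO. It fell in both settings, with log2 changes of −1.001 ± 0.28 in entinostat and −3.89 ± 0.39 in DMSO, and the interaction was 2.89 ± 0.48 (adjusted p = 0.0274).

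Glipr1, a gene of the secreted CAP protein superfamily, had 20.7, 22.1 and 22.0 CPM in Dox_Entinostat and 26.2, 13.9 and 15.8 CPM in NoDox_Entinostat. In DMSO it had 0.516, 0.324 and 0.215 CPM with doxycycline and 2.02, 2.02 and 2.62 CPM without. The 2 entinostat groups overlapped and stood well above both DMSO groups, which did not overlap each other. The doxycycline effect was 0.22 ± 0.26 in entinostat (adjusted p = 0.533) and −2.67 ± 0.33 in DMSO, with an interaction of 2.88 ± 0.42 (adjusted p = 0.0103).

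Tec, a kinase downstream of antigen and cytokine receptors (ENSMUSG00000029217, chromosome 5, 72755716 to 72868483), differed from the positive genes described so far. Entinostat without doxycycline left its level nearly where it was. It had 60.2, 49.3 and 51.4 CPM in Dox_Entinostat and 135, 135 and 141 CPM in NoDox_Entinostat, against 17.2, 9.36 and 9.37 CPM in Dox_DMSO and 142, 124 and 139 CPM in NoDox_DMSO. Both NoDox groups overlapped, and the Dox_Entinostat libraries lay between them and Dox_DMSO. The entinostat effect was 2.16 with doxycycline and 0.02 without, and the interaction 2.14 ± 0.31 (adjusted p = 0.01). Without doxycycline the entinostat effect also did not pass the test in Lpcat2 (−0.0038), Havcr2 (−0.33), Pstpip2 (0.30), Lpar6 (0.41) and Slc45a3 (−0.56). Over all the positive genes it ran from −0.93 (Iffo1) to 3.63 (Stx3). Slc45a3, a sugar transporter family gene, had 9.29, 9.91 and 7.99 CPM in Dox_Entinostat and 23.1, 26.3 and 24.4 CPM in NoDox_Entinostat, against 3.02, 1.62 and 1.72 CPM in Dox_DMSO and 42.4, 39.2 and 27.5 CPM in NoDox_DMSO. Its groups did not overlap, and the 2 groups without doxycycline were in the opposite order to those with it. The interaction was 2.66 ± 0.34 (adjusted p = 0.00494).

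The rest of the positive genes lay between 1.35 and 2.53. Mc5r, a melanocortin receptor, stood at 2.53, Stx3, a syntaxin of vesicle fusion, at 2.32, Lpcat2, which makes platelet-activating factor, at 2.24 and Smagp, a small membrane glycoprotein, at 2.20. Smagp had 7.88, 8.57 and 7.51 CPM in Dox_Entinostat and 14.3, 10.96 and 13.3 CPM in NoDox_Entinostat, against 1.40, 1.15 and 0.948 CPM in Dox_DMSO and 9.17, 8.56 and 8.01 CPM in NoDox_DMSO. Its Dox_Entinostat libraries lay just under or within the NoDox_DMSO range and far above Dox_DMSO. The following were named after their values were seen: Lpar6, a lysophosphatidic acid receptor, at 2.26, the noncoding RNA Dubr at 2.03, Samd13 at 2.02, Acap1, a GTPase-activating protein for Arf6, at 1.83 and Slc12a9 at 1.72. They also include Alox5ap, the partner of 5-lipoxygenase in leukotriene synthesis, at 1.66, B230217C12Rik at 1.54, the F-BAR protein gene Pstpip2 at 1.45, Iffo1 at 1.44, the lipid flippase gene Atp8b5 at 1.42, Havcr2, the inhibitory receptor TIM-3, at 1.39 and C430002N11Rik at 1.35. Acap1 was abundant, with 62.1, 92.1 and 75.4 CPM in Dox_Entinostat and 117, 120 and 124 CPM in NoDox_Entinostat, against 15.2, 15.3 and 17.3 CPM in Dox_DMSO and 92.4, 84.9 and 89.4 CPM in NoDox_DMSO. In Acap1 the Dox_DMSO libraries alone were low. The library kit does not mark strand, so reads of Dubr and the 2 Rik genes cannot be told apart from those of genes that overlap them on the other strand.

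**Figure D3:**
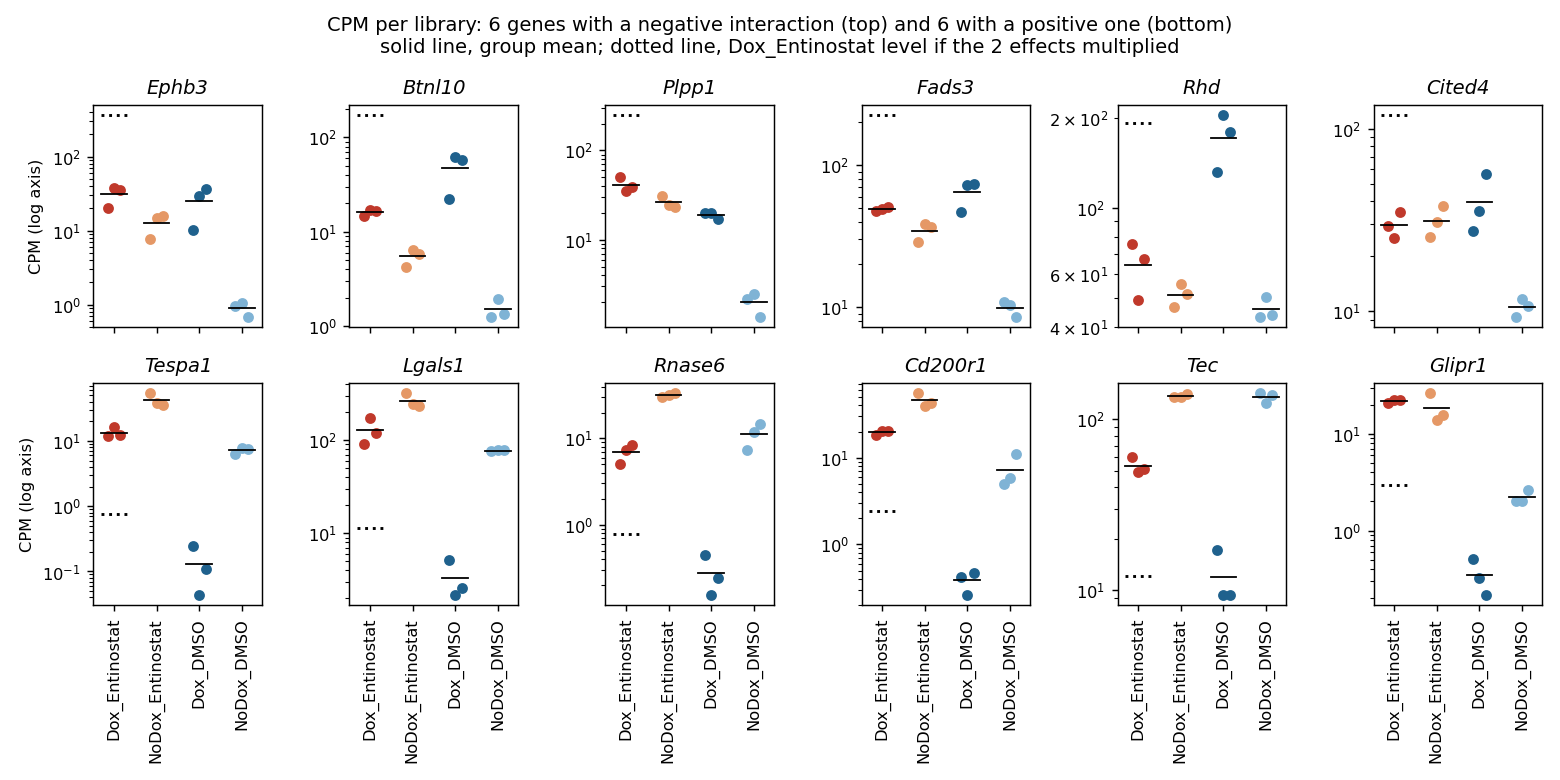
CPM per library on log axes for 6 negative genes (top) and 6 positive ones (bottom), in Dox_Entinostat, NoDox_Entinostat, Dox_DMSO and NoDox_DMSO cells; solid lines are group means and the dotted line is the Dox_Entinostat level had the 2 effects multiplied. The Dox_Entinostat points lie below the dotted line in the top row (Ephb3, 31.0 CPM in the mean and 361 CPM as the product) and above it in the bottom row (Tespa1, 13.5 and 0.773 CPM).

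The direction of a difference between effects depends on the scale, and for 12 of the 41 genes the same differences taken in CPM had the other sign. These were 10 of the 25 positive genes and 2 of the 16 negative ones. In Lgals1 the mean was 127 CPM in Dox_Entinostat and 265 CPM in NoDox_Entinostat, against 3.30 CPM in Dox_DMSO and 77.0 CPM in NoDox_DMSO, so the drop in CPM was larger in entinostat (a difference of −64.3 CPM) although it was smaller as a fold. Tespa1, Rnase6, Scin, Cd200r1, Tnf, Stx3, Alox5ap, Atp8b5 and B230217C12Rik were alike. For Tec, Glipr1, Slc45a3, Acap1, Smagp and Dubr the sign was positive on both scales, with 39.5 CPM in Tec. Among the negative genes, Pkhd1l1 and Rnf212 gained more CPM with doxycycline in entinostat than in DMSO, by 22.4 and 10.2 CPM, and Rhd gained 113 CPM less (a difference of −113 CPM).

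The first experiment of the series gave 6 libraries that the interaction does not use, 3 with doxycycline (Exp1_Dox) and 3 without (Exp1_NoDox), with neither entinostat nor DMSO. There, 727 of 13811 genes tested rose with doxycycline (5.26%) and 1154 fell (8.36%). The called interactions split along these lists. Of the 717 genes that had risen there and were tested for the interaction, 16 were called negative (background 0.106%) and 0 positive, and of the 1130 that had fallen, 24 were called positive (background 0.166%) and 0 negative. Without the 2 libraries that stood apart, the genes that had risen held 410 negative and 51 positive calls, and those that had fallen 304 positive and 290 negative calls, where 21.5% of all genes were positive and 30.0% negative. The 41st gene, C430002N11Rik, was tested in that experiment and not called (−0.56 ± 0.17). All 41 had there the sign they had in DMSO: Rnf212 by 4.79 ± 0.30, Ephb3 by 4.18 ± 0.26 and Btnl10 by 3.88 ± 0.28, and Scin by −4.80 ± 0.34, Rnase6 by −4.43 ± 0.29 and Tespa1 by −4.22 ± 0.27 (log2, 3 libraries a group). The median interaction was −0.61 over the genes that had risen and 0.12 over those that had fallen, against −0.09 over all genes tested. A negative value was found in 615 of the 717 genes that had risen and in 8261 of all 15051.

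Among genes that had changed at least 2-fold in the first experiment, the medians were −0.998 for 270 genes that rose and 0.57 for 527 that fell. Of the 270, 252 had a negative interaction and 18 a positive one, and of the 527, 408 had a positive interaction and 119 a negative one. These medians kept their sign under the fits that treat transcript length otherwise. With the length and GC trend removed they were −0.79 and 0.74, without the 2 libraries that stood apart −1.19 and 0.59, and with only the first libraries of those groups −0.54 and 0.80. For the full list of genes that fell, the median was less firm, at −0.01 without the 2 libraries and 0.25 with the trend removed.

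**Figure D4:**
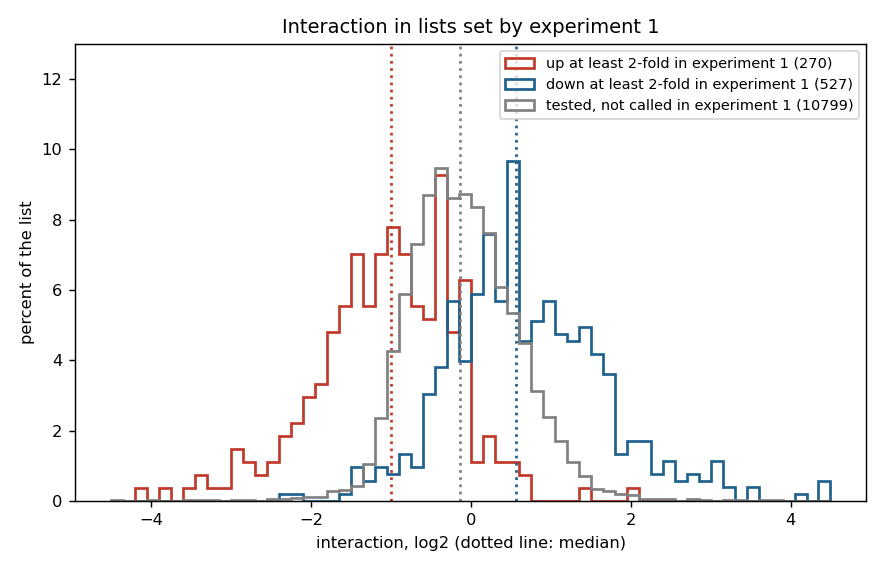
Interaction (log2, x axis, values beyond 4.5 drawn at the edge) as a percent of each list (y axis), for genes that rose or fell at least 2-fold with doxycycline in the first experiment and for those tested there and not called; dotted lines are medians. The list that rose is shifted to negative values (median −0.998) and the list that fell to positive ones (median 0.57), around −0.14 for the genes not called.

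The 2 doxycycline effects inside the crossed experiment share no library and can be set side by side. In entinostat 1348 genes rose (8.96%) and 2266 fell (15.1%), and in DMSO 568 rose (3.77%) and 833 fell (5.53%). Of these, 270 rose in both, which is 20.03% of the entinostat list and 47.5% of the DMSO list, and 627 fell in both, 27.7% and 75.3%. A single gene was called in opposite directions. The difference between the effects passed its own test for 41 genes, so a call in entinostat alone does not show a difference from DMSO. The balance of short and long transcripts (short minus long, log2) entered the 2 effects unequally. It was 0.29, −0.01 and 0.23 in Dox_Entinostat against 0.30, −0.79 and −0.73 in NoDox_Entinostat. For Dox_DMSO it was 0.24, −0.78 and −0.82, against −0.13, −0.49 and −0.32 in NoDox_DMSO. Whether this balance contributed to the larger number of calls in entinostat was not tested.

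With all 12 libraries and no trend removed, no gene list held more than 1 call. The 40 lists, on erythroid, myeloid, chromatin, cell cycle and metabolic genes, held 4 of the 41 genes, 1 each in 4 lists, against 0.272% of all genes. These were Rhd among 32 red cell membrane and surface genes, Tec among 27 immune receptor adaptors and kinases, Tnf among 16 chemokines and interleukins and Lgals1 in a list of 14 annexin and S100 genes to which it had been added. In each of the other 36 lists, 0 members passed edgeR's test in either direction in that fit. Without the 2 libraries that stood apart, where 30.0% of all genes were called negative, 25 of 32 red cell membrane genes, 17 of 21 erythroid transcription factors and 22 of 33 class I HDAC and corepressor genes were called negative, and 2, 0 and 1 positive. With the length and GC trend removed from all 12 libraries these lists had 4, 0 and 0 negative calls and 1, 0 and 0 positive ones. There the immune receptor list held 3 positive calls and the annexin and S100 list 2, with 0 negative in both. The chemokine list, the myeloid SPI1 targets and the stem and progenitor regulators held 1 positive call each. Of all genes, 0.399% were then positive and 0.213% negative.

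The medians of the lists changed with the libraries used and with the length and GC trend removed. Transcript length did not order all of these changes. The 32 red cell membrane genes had a median of −0.89, with 28 negative and 4 positive, where all genes had −0.09. It was −1.23 without the 2 libraries that stood apart, −0.48 with the length and GC trend removed and 0.23 with only the first libraries, a change of sign. The 21 erythroid transcription factors had −0.70, −1.08, −0.30 and 0.20 in these 4 fits, and the 33 class I HDAC and corepressor genes −0.59, −1.002, −0.20 and 0.31. Their transcripts are long, with medians of 3419, 3693 and 4115 bases, against 2817 over all genes. The 18 replication-dependent histone genes, with a median length of 742 bases, had 0.44, 0.66, 0.02 and 0.05, and the 11 mast cell and basophil genes, at 1449 bases, 0.59, 1.80, 0.47 and −0.39. The 29 myeloid SPI1 targets had −0.29, −0.45, 0.02 and 0.83, and the 27 immune receptor adaptors and kinases 0.16, −0.32, 0.47 and 0.94. The myeloid list thus moved in the same directions as the long lists, with a median length of 2600 bases. The 17 megakaryocyte and platelet genes, at 3437 bases, had −0.27, −0.76, −0.55 and 0.71. The 21 ATF4 and stress response genes, at 2449 bases, had −0.48, −0.68, −0.40 and −0.49. Without TMM scaling all medians shifted down by about the same amount (all genes, from −0.09 to −0.20). This turned the small positive medians of the chemokine list (0.03) and the NADPH oxidase list (0.10) negative, and RLE factors turned none of these.

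With all 12 libraries the histone deacetylase and PRC2 genes gave no call, while 5 of 7 passed without the 2 libraries that stood apart. Hdac1 had 367, 304 and 344 CPM in Dox_Entinostat and 372, 349 and 343 CPM in NoDox_Entinostat, against 327, 294 and 278 CPM in Dox_DMSO and 338, 338 and 339 CPM in NoDox_DMSO. The groups with and without doxycycline overlapped in entinostat, and the interaction was 0.11 ± 0.22 (adjusted p = 0.794), or −0.000852 by library size alone. Hdac2 was at −0.20 ± 0.23 and Hdac3 at 0.09 ± 0.18, with adjusted p of 0.625 and 0.779. Among the PRC2 genes, the methyltransferases Ezh2 and Ezh1 were at −0.43 ± 0.24 and −0.71 ± 0.35, and the core subunits Suz12 and Eed at −0.56 ± 0.35 and 0.57 ± 0.31. Their adjusted p ran from 0.325 to 0.374, and each of these 4 values changed sign with only the first libraries. Of the 11 PRC2 genes tested, 0 were called, with a median of −0.42. Without the first Dox_DMSO and NoDox_Entinostat libraries, Eed was called positive (1.06 ± 0.15, adjusted p = 5.99e-05), and Suz12 (−0.99 ± 0.16, 0.00015), Ezh1 (−1.09 ± 0.23, 0.00133), Ezh2 (−0.67 ± 0.15, 0.00159) and Hdac2 (−0.42 ± 0.15, 0.0272) were called negative, where 21.5% of all genes were called positive and 30.0% negative. Of the 11 PRC2 genes, 3 were then positive and 6 negative. With the length and GC trend removed as well, Ezh1 was no longer called (−0.36, adjusted p = 0.209) and Hdac3 was called positive (0.45, 0.00449). Eed, Suz12, Ezh2 and Hdac2 were still called in that fit, where 19.0% of all genes were positive and 21.6% negative. With SEs of 0.18 to 0.35 for these 7 genes over all 12 libraries, an interaction that missed the threshold is not shown to be absent.

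Erythroid and growth regulators were also below the threshold with all 12 libraries, and most passed it without the 2 that stood apart. Gata1, the master erythroid factor, was at −0.32 ± 0.26, Klf1, an activator of globin and red cell genes, at −0.93 ± 0.32, Epor, the erythropoietin receptor, at −0.37 ± 0.18, Kit, the stem cell factor receptor, at −0.52 ± 0.46 and Myc at −0.82 ± 0.36, with adjusted p between 0.314 and 0.51. Klf1 had 33.3, 30.6 and 38.3 CPM in Dox_Entinostat and 33.3, 43.3 and 55.6 CPM in NoDox_Entinostat, against 116, 163 and 210 CPM in Dox_DMSO and 109, 114 and 109 CPM in NoDox_DMSO. The entinostat libraries were all below the DMSO libraries, and the Dox_DMSO libraries spread widely. Bcl2l11, the gene of the death-promoting protein BIM and a known SPI1-repressed gene, had 40.4, 57.7 and 51.2 CPM in Dox_Entinostat and 24.8, 40.0 and 37.4 CPM in NoDox_Entinostat, against 23.7, 31.6 and 32.6 CPM in Dox_DMSO and 9.64, 9.04 and 8.27 CPM in NoDox_DMSO. It was highest with both treatments, at a mean of 49.7 CPM, below a product level of 111 CPM. Its interaction of −1.16 ± 0.29 missed the threshold (adjusted p = 0.188). Cdkn1a, the cell cycle inhibitor p21, was at −1.66 ± 0.50 (adjusted p = 0.267), and at −2.24 ± 0.26 without the 2 libraries (adjusted p = 1.12e-05) and 0.032 with only the first ones. Without the 2 libraries Bcl2l11 was at −1.48 ± 0.19 (adjusted p = 1.97e-05), Klf1 at −1.30 ± 0.19 (6.88e-05), Myc at −1.26 ± 0.19 (7.81e-05), Gata1 at −0.58 ± 0.15 (0.00509) and Epor at −0.45 ± 0.13 (0.00981), while Kit stayed below the threshold (−0.73 ± 0.44, 0.183). In that fit 21.5% of all genes were called positive and 30.0% negative, so a call there does not by itself set a gene apart. Bcl2l11, with a transcript of 5036 bases, was at −0.74 with the length and GC trend removed from all 12 libraries (adjusted p = 0.113). With the 2 libraries also left out it was at −0.76 (adjusted p = 0.00486), where 21.6% of all genes were called negative. With only the first libraries it was at −0.45. Klf1 was at −0.88, −1.29 and −0.09 in these fits, in that order.

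Without the first Dox_DMSO and the first NoDox_Entinostat library, 3326 of 15478 genes were called positive (21.5%) and 4646 negative (30.0%). In that fit the interaction followed transcript length: the median ran from 1.22 in the shortest decile of genes to −1.05 in the longest. With the length and GC trend removed as well, 2933 genes were positive (19.0%) and 3339 negative (21.6%). With all 12 libraries and the trend removed there were 60 positive (0.399%) and 32 negative (0.213%). With only the first library of each of those 2 groups, 56 were positive (0.350%) and 60 negative (0.375%), and the medians ran from −0.49 in the shortest decile to 0.42 in the longest. The 41 genes kept their sign in all these fits, and 41, 41, 38 and 23 of them were still called, in the order given. The 25 positive genes had a median transcript of 2721 bases and the 16 negative genes one of 4199.5 bases, against 2817 bases over all genes, so the negative genes lay on the side that the length trend with all 12 libraries makes negative. The 3 genes no longer called with the trend removed from all 12 libraries were Pkhd1l1 (−1.36, adjusted p = 0.206), C430002N11Rik (1.07, 0.162) and B230217C12Rik (1.36, 0.112).

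The fit without the 2 libraries put genes in front that the 12 libraries did not call. Il4, the gene of interleukin 4, had 13.7, 20.99 and 15.1 CPM in Dox_Entinostat and 22.8, 7.66 and 6.82 CPM in NoDox_Entinostat, against 0.909, 0.346 and 0.323 CPM in Dox_DMSO and 4.04, 3.71 and 3.45 CPM in NoDox_DMSO. The first NoDox_Entinostat and the first Dox_DMSO library were the high ones in their groups. The interaction was 3.26 ± 0.66 with all libraries (adjusted p = 0.0761) and 4.66 ± 0.33 without those 2 (adjusted p = 2.1e-06). Mcpt2, a mast cell protease gene, was at 2.83 ± 0.93 with all (adjusted p = 0.306) and 5.12 ± 0.51 without them, and Bcl2a1a, whose near-identical copies share its reads, at 3.12 ± 0.96 and 3.80 ± 0.76. Albfm1 and Tmem150b, at 4.13 and 2.61 with all libraries, had 1 read each over the 3 Dox_DMSO libraries, so that the ratio of NoDox_DMSO to Dox_DMSO was 14.7 (exact 95% interval 2.26 to 617.9) and 35.2 (5.93 to 1430). On the negative side Tgm2, tissue transglutaminase, was at −3.33 ± 0.92 and −4.14 ± 0.58, Apol8 at −2.88 ± 0.83 and −3.62 ± 0.48, Crybg1 at −2.87 ± 0.67 and −3.58 ± 0.36 and the actin-binding protein gene Nexn at −2.87 ± 0.71 and −3.58 ± 0.33. Tgm2, Apol8, Crybg1 and Nexn were between −0.51 and −0.27 with only the first libraries, where the 41 called genes stayed at 1.11 or more in size. The former were picked in the fit that leaves those libraries out, and the 41 in one that holds them. This contrast is therefore no test of either set.

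The number of calls depended on single libraries. Without the first, the second or the third Dox_Entinostat library it was 20, 6 and 14 positive genes and 8, 3 and 6 negative ones. Without the first, the second or the third NoDox_Entinostat library it was 928, 12 and 12 positive and 2133, 6 and 6 negative. Leaving out the Dox_DMSO libraries in that order gave 1018, 14 and 11 positive and 1619, 6 and 6 negative, and leaving out the NoDox_DMSO libraries 20, 12 and 13 positive and 10, 5 and 7 negative. All 41 genes kept their sign in each of these 12 fits, and between 9 and 41 were still called, with 9 in the fit without the second Dox_Entinostat library. 8 genes were called in all 12 and in the 13 other refits: Osr2, Plpp1 and Fads3 on the negative side, and Tespa1, Lgals1, Slc45a3, Smagp and Acap1 on the positive side. Over the 12 fits Plpp1 stayed between −2.76 and −2.36, Fads3 between −2.39 and −2.09, Lgals1 between 3.20 and 3.96 and Tespa1 between 3.71 and 4.88. Ephb3, Fhdc1, Abcg4, Cited4, Rhd, Fam169a, Samd13, Lpar6, Havcr2 and C430002N11Rik were called in only 2 of the 12, those without a first Dox_DMSO or NoDox_Entinostat library.

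**Figure D5:**
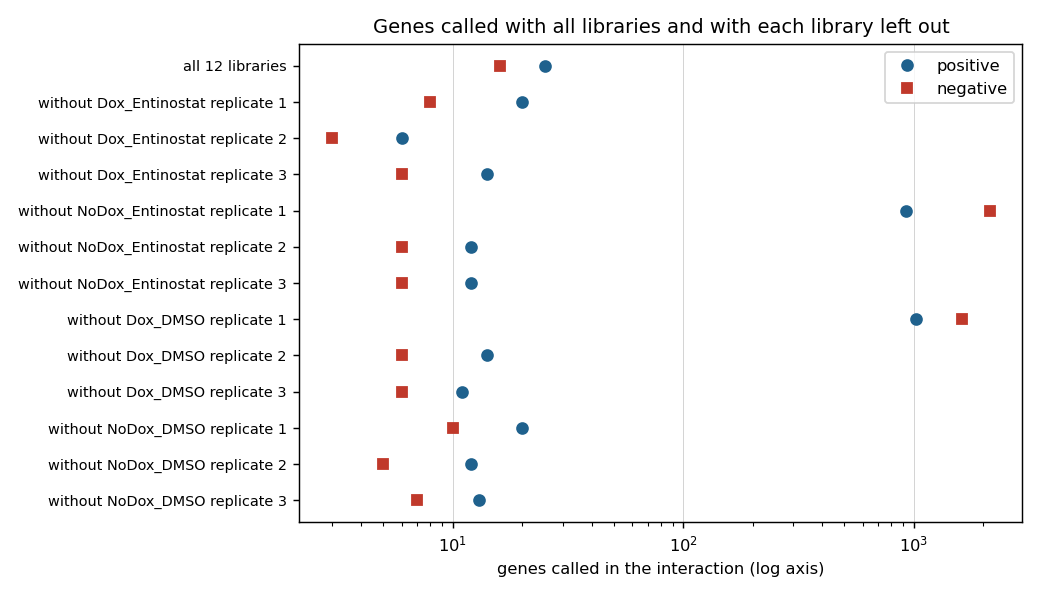
Number of genes called in the interaction (x axis, log scale), positive (circles) and negative (squares), with all 12 libraries and with each library left out in turn. Leaving out the first NoDox_Entinostat or the first Dox_DMSO library gave 928 and 1018 positive calls, and leaving out any other library gave between 6 and 20.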

How the data were processed

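Polyadenylated RNA was sequenced from 12 libraries of the crossed experiment and 6 of the first experiment, with a kit that does not mark strand. The deposited tables hold the authors' raw counts per gene, 1 table an experiment, with 26903 and 25628 genes. The table of the first experiment holds no value under 1, unlike that of the crossed experiment, and the reason is not given in the sources used here. What this does to the fold changes of low genes there was not tested. The tools named per the submitters' processing notes are STAR, DESeq2 and bcl2fastq 2.17.1.14, with the mm10 build. The counter and annotation are not given in the sources used here. The tables were fitted separately in R 4.3.3 with edgeR 4.0.16 (TMM, filterByExpr, group means, quasi-likelihood tests, two-sided, Benjamini-Hochberg over all genes tested, threshold 0.05). The interaction was 1 contrast in a fit of 12 libraries, and its SE came from the F statistic. Totals were 43.1 to 48.9 M counts. Without molecular identifiers, reads may be copies of 1 molecule, and intervals on reads cover counting error only.

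Gene names, coordinates, length and GC content came from GENCODE M21, which held 26853 of the identifiers. Splines of length and GC content (4 degrees of freedom, genes of at least 2 log2 CPM) were removed as offsets in the trend fits. The script was tested on simulated data.

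The 41 called genes are all named. Of these, 26 came from a rule: 15 fixed genes, the 12 most positive and 12 most negative called genes with a group mean of at least 5 CPM and a regular name, 8 and 8 in the fit without 2 libraries, 6 and 6 within the first experiment's lists, and up to 3 members of each list with a call. The other 15 were named after their values were seen. The members, lists and tests were chosen with earlier results of these data known. Alternatives covered the scaling (library size alone, RLE), the filter (none, or 1 CPM in 3 or more libraries), the tool (limma-voom from limma 3.58.1, DESeq2 1.42.0), the replicate block, the length and GC trend removed, a 2-fold limit, a linear scale and libraries left out. Using only the first Dox_DMSO and NoDox_Entinostat libraries, and removing the trend after leaving them out, were added after seeing the data. Where 1 library was left in a group, it was assumed to vary like those of the other groups.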

Additional observations from a re-analysis of the deposited data

Results flagged for a closer look

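Results are listed here because the doxycycline effect differed between entinostat and DMSO by a test of that difference (edgeR, interaction term). This holds for 25 genes with a positive and 16 with a negative interaction. The negative values (log2) were −3.87 for Rnf212, −3.54 for Ephb3, −3.40 for Btnl10, −3.08 for Fhdc1, −2.81 for Fgf2, −2.65 for Osr2, −2.57 for Plpp1 and −2.39 for Abcg4. They were −2.20 for Fads3, −1.99 for Cited4, −1.91 for Dmwd, −1.79 for Rhobtb3, −1.76 for Pkhd1l1, −1.58 for Rhd, −1.56 for Yes1 and −1.45 for Fam169a. The positive values were 4.14 for Tespa1, 3.49 for Lgals1, 3.16 for Rnase6, 3.13 for Scin, 3.02 for Cd200r1, 2.89 for Tnf, 2.88 for Glipr1, 2.66 for Slc45a3 and 2.53 for Mc5r. Next came 2.32 for Stx3, 2.26 for Lpar6, 2.24 for Lpcat2, 2.20 for Smagp, 2.14 for Tec, 2.03 for Dubr, 2.02 for Samd13, 1.83 for Acap1 and 1.72 for Slc12a9. The smallest were 1.66 for Alox5ap, 1.54 for B230217C12Rik, 1.45 for Pstpip2, 1.44 for Iffo1, 1.42 for Atp8b5, 1.39 for Havcr2 and 1.35 for C430002N11Rik. The adjusted p ran from 0.00493 to 0.0498. Groups of 3 libraries were too small for a check of single outlying values.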

How the results depend on the processing

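The 41 called genes kept their sign in all 25 refits on the log2 scale. Positive calls numbered 67 without a filter, 122 by DESeq2, 60 once the trend of length and GC was taken out, 3326 without the first Dox_DMSO and NoDox_Entinostat libraries, 2933 without those and with the trend removed, 3369 without the first library of all 4 groups and 56 with only the first libraries of those 2 groups. Negative calls in these fits numbered 139, 113, 32, 4646, 3339, 4893 and 60. Negative calls among genes that had risen in the first experiment numbered 93, 86, 31, 410, 324, 428 and 22, and 10 with limma-voom. Positive calls among genes that had fallen there numbered 53, 92, 51, 304, 356, 346 and 45. Leaving out 1 library at a time gave 6 to 1018 positive and 3 to 2133 negative calls, and 3 to 269 and 6 to 178 in the lists of the first experiment. The share of positive calls was 61.0% with TMM, 63.6% with RLE factors and 62.1% with library size alone, where 41, 41 and 29 of the genes were called and the median over all genes was −0.09, −0.07 and −0.20.

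Replicate numbers did not meet the limit set for pairing, a correlation over 0.1 in every same-number pair: deviations from group means correlated at 0.00354 to 0.739, with 18 of 18 positive and 7 of 18 over 0.1. Each of the 12 libraries correlated best with one of its own number, a hint from the data and not from the design. With the replicate block, 73 genes were positive and 104 negative, with 83 negative among genes that had risen in the first experiment and 66 positive among those that had fallen. With the block and the trend removed these were 135, 128, 93 and 108.

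On the linear scale, the difference in CPM had the other sign for Alox5ap (−15.4), Atp8b5 (−6.08), B230217C12Rik (−2.97), Cd200r1 (−19.2), Lgals1 (−64.3), Rnase6 (−13.9), Scin (−4.87), Stx3 (−9.14), Tespa1 (−21.9), Tnf (−0.584), Pkhd1l1 (22.4) and Rnf212 (10.2). With only the first libraries, log2 values that were not called changed sign for Spi1 (1.18), Cdkn1a (0.032), Eed (−0.26), Ezh1 (0.20), Ezh2 (0.061), Gata1 (0.23), Hdac1 (−0.14), Hdac2 (0.24), Myc (0.26) and Suz12 (0.49). With library size alone they did for Hdac1 (−0.000852) and Hdac3 (−0.019), and without the 2 libraries and with the trend removed for Kit (0.044). The causes were not tested. The spread among 3 libraries a group limits what could be called, and 1 line with no control hairpin analysed here limits every result.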
